A study of Mus musculus with 9 samples.

Results

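Transcripts of 10 serotonin receptor genes were followed in mouse spinal cord after a complete transection at T9. The genes Htr1a, Htr1b, Htr1d, Htr2a, Htr2b, Htr2c, Htr3a, Htr4, Htr5a and Htr7 were taken by their symbols and make up 10 of the 34745 genes in the authors' table. The 4 other serotonin receptor genes of the table, Htr1f, Htr3b, Htr5b and Htr6, are given beside them. The study sequenced poly-A RNA of spinal cord at day 0, day 3 and day 21 after the transection, with 3 libraries at each time. The titles give the day of the day 3 and day 21 libraries, and the remaining group, titled N, was taken as day 0 because the series design names that time. The sources used here do not give strain, age, sex, any surgery on the day 0 animals or the stretch of cord taken relative to the lesion, so the values cannot be placed above or below the lesion. Nor do they tie each library to an animal of its own, and the p-values therefore speak of the spread between these libraries, which may be technical.

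Serotonin reaches the spinal cord almost wholly through axons of raphe neurons in the brainstem. A complete transection cuts those that run to segments below it and spares those that end above it. The receptors themselves are made by cells of the cord: those coupled to Gi (Htr1a, Htr1b, Htr1d and Htr5a) lower cyclic AMP, those coupled to Gq (Htr2a, Htr2b and Htr2c) act through phospholipase C, Htr3a forms a cation channel, and those coupled to Gs (Htr4 and Htr7) raise cyclic AMP. In motor neurons, receptors of the Gq class raise excitability, and work in rats has tied their activity without serotonin to spasms after cord injury.

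The 9 libraries held 14299679 to 24022923 counts each. Day 21 replicate 2 stood apart from the other libraries of its group, with a lowest within-group Pearson correlation of 0.929 over log2 counts scaled to library size (CPM) and a sample quality weight from limma of 0.0583, where day 0 replicate 1 had 0.354 and the other 7 libraries 1.02 to 2.03, so results at day 21 are given with and without it. Day 0 replicate 1 also differed from its group: 43.5% and 43.7% of genes differed beyond counting noise between it and day 0 replicates 2 and 3, against 17% between those 2 libraries, and mitochondrial genes took 6.93% of its counts, against 9.02% and 9.05% of theirs. The number of members called without it is given with the calls. Markers of neurons in general, not of cord neurons alone, were present at every time. Their summed level over 12 genes was 2766 to 2799 FPKM (fragments scaled to gene length and library size) at day 0, 1385 to 1396 FPKM at day 3 and 1799 to 2061 FPKM at day 21. In the lower thoracic to sacral Hox list, 8 of 10 genes were lower at day 3 than at day 0, and at day 21 5 were lower and 1 was higher than at day 0. Markers of peripheral sensory neurons, whose cell bodies lie in dorsal root ganglia outside the cord, summed to 0.908 to 1.16 FPKM at day 0, 51.4 to 51.9 FPKM at day 3 and 9.82 to 11.1 FPKM at day 21. All 8 skeletal muscle markers were higher at day 21 than at day 0 (median log2 fold change 3.12), with sums of 12.7 to 16.8 FPKM at day 0, 5.88 to 6.32 FPKM at day 3 and 112, 176 and 105 FPKM in day 21 replicates 1, 2 and 3. In these bulk libraries, fewer cells of a type, less RNA per cell and a difference between the groups in the tissue taken cannot be told apart.

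At day 3, the receptor transcripts moved in both directions. Htr1a, Htr1b, Htr2a, Htr2c, Htr4 and Htr5a fell, with log2 fold changes of -1.14 to -1.48, and Htr2b, which was close to undetected at day 0, rose. A gene was counted as changed at an adjusted p under 0.05 by edgeR's quasi-likelihood test (Benjamini-Hochberg over the 16494 genes tested, two-sided). All 10 members passed the filter on low counts and were tested, Htr2b only through its day 3 and day 21 libraries. Of the 10 members, 1 was higher and 6 were lower at day 3 than at day 0, where 44.3% of all genes tested were called, 24.8% higher and 19.5% lower. The median log2 fold change of the members was -1.18 in that comparison, against 0.01 over all genes tested and -1.02 over the 12 neuron markers, all 12 of which were lower. Without day 0 replicate 1, 1 member was higher and 5 were lower, with Htr2a no longer called and 37.9% of all genes called.

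At day 21, Htr2b was still higher than at day 0 and was the 1 member called; no member was called lower, and 29.2% of all genes tested were called (17.9% higher, 11.3% lower). Htr1a, Htr4 and Htr5a had edgeR adjusted p of 0.0757, 0.096 and 0.0674 at day 21 against day 0 and were not called. DESeq2 called 2 members lower, where 2288 of 16494 genes were called lower and 33.3% were called in either direction. Voom with sample weights called 3 members lower, where 3956 of 16494 genes were called lower and 50.5% were called in either direction. The median log2 fold change of the members was -0.50, that of all genes 0.02 and that of the neuron markers -0.52, with 8 of 12 neuron markers lower. Between day 21 and day 3, 4 members were called: Htr1a, Htr2c and Htr5a were higher at day 21, and Htr2b was lower at day 21. In that comparison 27.8% of all genes were called, 11.7% higher and 16.1% lower, and 7 of 12 neuron markers were higher and 1 was lower at day 21. Without day 0 replicate 1, Htr1a was no longer called between day 21 and day 3, for 2 members higher and 1 lower (26.4% of all genes called), and Htr2b was again the 1 member called between day 21 and day 0 (23% of all genes called). Comparisons of day 3 and of day 21 with day 0 share the same day 0 libraries, so their values are set side by side and not related to each other.

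**Figure D1:**
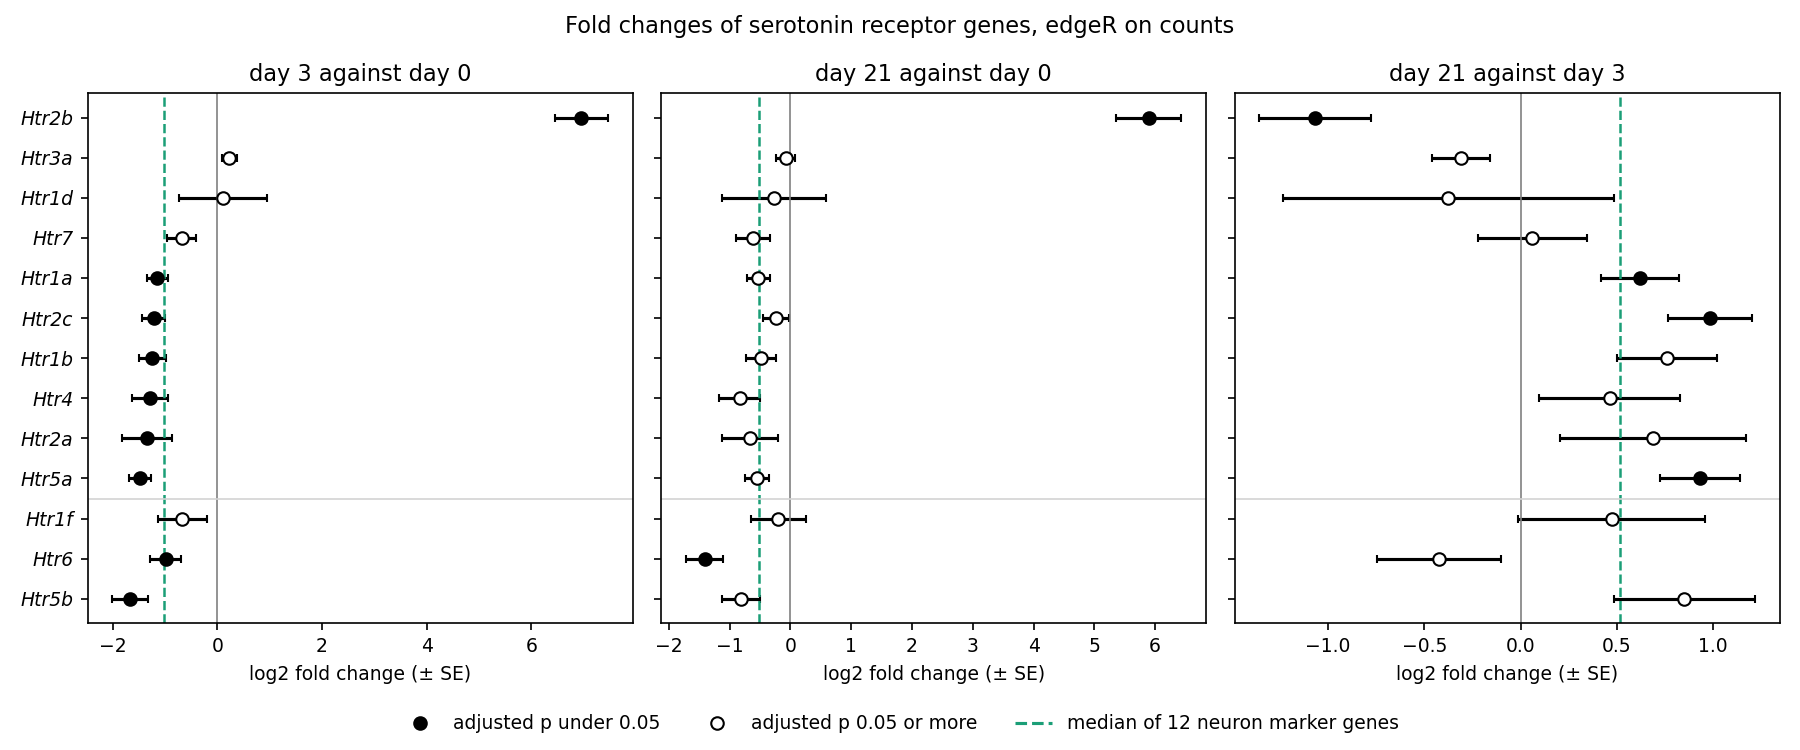
Log2 fold change (x axis, ± SE from edgeR on counts) of 13 serotonin receptor genes in 3 comparisons, with the 10 members above the grey line and 3 other receptor genes below it; filled points have an adjusted p under 0.05 and the dashed line is the median of 12 neuron markers. Htr2b stands far to the right against day 0 in both comparisons (6.96 and 5.89, fitted values that rest on 2 counts at day 0), while 6 members lie between -1.14 and -1.48 at day 3 with filled points.

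By level per length, the most abundant receptor at day 0 was Htr2c, at a mean of 6.22 FPKM, above 73.5% of the 21349 genes with a count in that group. The next levels were those of Htr2a (3.84 FPKM), Htr3a (3.46 FPKM) and Htr1a (3.30 FPKM), and each of these overlapped its neighbour in the range of the 3 libraries. Htr5a (2.40 FPKM) and Htr1b (2.09 FPKM) followed and overlapped, then Htr7 (1.39 FPKM), then Htr4 (0.540 FPKM) and Htr1d (0.376 FPKM), which overlapped, and Htr2b came last at 0.0145 FPKM. At day 3, Htr3a had the first place at 4.21 FPKM and did not overlap Htr2c (2.78 FPKM), which in turn did not overlap Htr2b in the third place (2.08 FPKM). At day 21, Htr2c led again at 5.74 FPKM, and the only neighbours in the order without overlap were Htr7 and Htr1d.

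That order depends on the gene lengths behind the authors' values. The lengths implied by the deposited counts and FPKM differ from the exon bases of GENCODE M21 for several members: 14552 against 9328 bases for Htr2c, 9704 against 3399 for Htr7 and 2971 against 5606 for Htr2a. At the GENCODE lengths, Htr2c would have the highest mean at all 3 times, with 9.71 FPKM at day 0, 4.33 FPKM at day 3 and 8.96 FPKM at day 21. At day 3 the order of Htr2c (4.33 ± 0.3 FPKM) and Htr3a (4.20 ± 0.0989 FPKM) is not settled, since the gap is within the SD of Htr2c. Htr7 would move to the second place at day 0 with 3.98 FPKM, and Htr2a to the seventh with 2.04 FPKM. Fold changes between times come from counts of 1 gene and do not depend on the length chosen to scale it. Day 21 replicate 2 differed from its group by gene length, as given below, and the part of this in the day 21 fold changes was not tested.

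**Figure D2:**
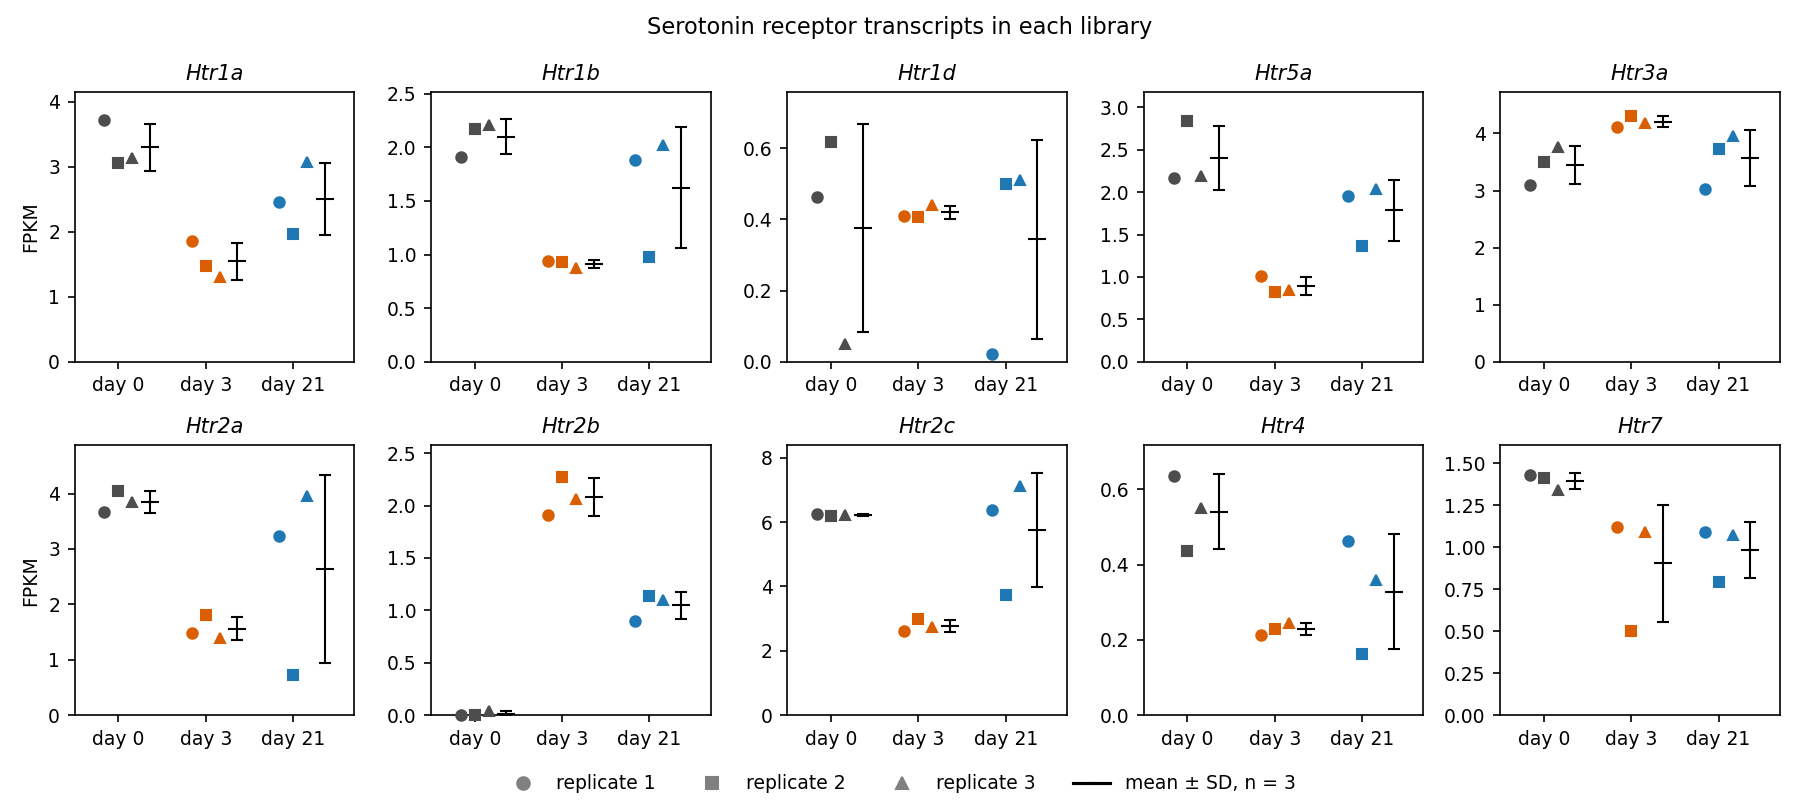
FPKM (y axis, own scale in each panel, starting at 0) of the 10 receptor genes in each of 9 libraries at day 0, day 3 and day 21; symbols mark the replicate number and bars the mean ± SD (n = 3). Htr2b is at or near 0 at day 0 and at 1.91 to 2.27 FPKM at day 3, the squares of day 21 replicate 2 sit below the other day 21 libraries in Htr2a, Htr2c, Htr1b and Htr4, and Htr1d has 1 low library each at day 0 and day 21.

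Among the Gi-coupled receptors, Htr1a (chr13:105443693-105448133, plus strand), an inhibitory receptor found in the dorsal horn and on motor neurons, had 397, 214 and 245 counts in the day 0 libraries, 133, 117 and 87 at day 3 and 172, 127 and 195 at day 21. All day 3 libraries lay below all day 0 libraries in FPKM, and the day 21 libraries lay between, with 1 of them reaching the day 0 range. Its level averaged 1.55 ± 0.282 FPKM at day 3 and 3.30 ± 0.364 FPKM at day 0 (SD, n = 3 each), a log2 fold change of -1.14 ± 0.20 (SE; edgeR adjusted p 0.00145). At day 21 the mean was 2.5 ± 0.553 FPKM, which gave a log2 fold change of -0.52 ± 0.20 against day 0 (edgeR adjusted p 0.0757). Against day 3, the day 21 level was higher by 0.62 ± 0.20 on the log2 scale (edgeR adjusted p 0.0477). That last call was held in 2 of the 9 fits that each left out 1 library (edgeR adjusted p 0.00353 to 0.162).

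Htr1b (chr9:81628291-81633828, minus strand), a presynaptic receptor that limits transmitter release, had 275, 205 and 233 counts at day 0, 91, 100 and 78 at day 3 and 178, 85 and 173 at day 21. Day 3 and day 0 did not overlap, and at day 21 replicate 2 was near the day 3 level while the other 2 libraries were close to day 0. The day 3 mean was 0.915 ± 0.0377 FPKM and the day 0 mean 2.09 ± 0.162 FPKM (SD, n = 3 each), with a log2 fold change of -1.25 ± 0.26 (edgeR adjusted p 0.00373). Day 21 against day 3 gave 0.76 ± 0.26 (edgeR adjusted p 0.0563), and without day 21 replicate 2 it gave 1.03 (edgeR adjusted p 0.000134). An antisense gene, D430036J16Rik, shares 18% of the exon bases of Htr1b, and the sources used here do not say whether the counting used strand. That antisense gene had 20 counts over the 3 day 3 libraries and 37 over the 3 day 0 libraries, against 269 and 713 for Htr1b.

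Htr1d (chr4:136423524-136444398, plus strand), a close relative of Htr1b found on nerve endings, had no stable level within groups. It had 64, 56 and 5 counts at day 0, 38, 42 and 38 at day 3 and 2, 42 and 42 at day 21. The day 3 libraries were even, while 1 library at day 0 and 1 at day 21 were close to 0. Day 0 replicates 2 and 3 were otherwise close to each other: of 13912 genes with at least 30 counts in either, 30 (0.216%) were at least 5-fold apart in counts scaled to library size, Htr1d among them. The log2 fold change was 0.11 ± 0.84 for day 3 against day 0 (edgeR adjusted p 0.929) and -0.26 ± 0.86 for day 21 against day 0 (edgeR adjusted p 0.85), so a change smaller than the spread between libraries could not be seen.

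Htr5a (chr5:27842149-27855088, plus strand), a Gi-coupled receptor of neurons, fell at day 3. Its counts were 280, 241 and 207 at day 0, 87, 79 and 68 at day 3 and 165, 107 and 156 at day 21. The 3 groups did not overlap in FPKM, with day 21 between day 3 and day 0. At day 3 it averaged 0.891 ± 0.1 FPKM, against 2.40 ± 0.385 FPKM at day 0 (SD, n = 3 each), a log2 fold change of -1.48 ± 0.21 (edgeR adjusted p 0.000366). At day 21 it was higher than at day 3 by 0.93 ± 0.21 on the log2 scale (edgeR adjusted p 0.0102), and against day 0 its log2 fold change was -0.55 ± 0.20 (edgeR adjusted p 0.0674). The first 2 of these calls held in all 9 fits that left out 1 library.

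Of the Gq-coupled receptors, Htr2c (chrX:146962513-147197277, plus strand), a receptor tied in rats to the excitability of motor neurons after cord injury, had 2185, 1418 and 1598 counts at day 0, 609, 778 and 597 at day 3 and 1460, 792 and 1481 at day 21. In FPKM the day 0 libraries were within a narrow range, 6.18 to 6.25, all day 3 libraries were below them, and at day 21 replicate 2 (3.74 FPKM) was below the day 0 range while the other 2 (6.37 and 7.12 FPKM) were above it. The mean was 2.78 ± 0.192 FPKM at day 3 and 6.22 ± 0.0359 FPKM at day 0 (SD, n = 3 each), a log2 fold change of -1.22 ± 0.22 (edgeR adjusted p 0.00172). Between day 21 and day 3 the log2 fold change was 0.98 ± 0.22 (edgeR adjusted p 0.0102). Between day 21 and day 0 it was -0.24 ± 0.22 (edgeR adjusted p 0.456), and 0.01 without day 21 replicate 2 (edgeR adjusted p 0.969). None of the 8 short RNA genes that lie inside the Htr2c locus shares exon bases with it in GENCODE M21.

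Htr2a (chr14:74640840-74706859, plus strand), which like Htr2c excites motor neurons, had 261, 189 and 201 counts at day 0, 71, 96 and 62 at day 3 and 151, 31 and 168 at day 21. All day 3 libraries were below all day 0 libraries, and at day 21 replicate 2 had the lowest level of all 9 libraries (0.717 FPKM) while the other 2 had 3.23 and 3.95 FPKM. The day 3 mean was 1.56 ± 0.212 FPKM and the day 0 mean 3.84 ± 0.189 FPKM (SD, n = 3 each), with a log2 fold change of -1.35 ± 0.48 (edgeR adjusted p 0.0456). Leaving out 1 library at a time ended this call for each of the 3 day 0 libraries, each of the 3 day 3 libraries and day 21 replicate 1 (edgeR adjusted p 0.0572 to 0.125). Without day 21 replicate 2 the edgeR adjusted p was 1.61e-05. For day 21 against day 3 the log2 fold change was 0.69 ± 0.48 (edgeR adjusted p 0.329), and 1.14 without day 21 replicate 2 (edgeR adjusted p 0.000236).

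Htr2b (chr1:86099026-86111970, minus strand), known from vascular, heart and connective tissue cells and from microglia, was the one member that rose. It had 0, 0 and 2 counts at day 0, 80, 106 and 80 at day 3 and 37, 43 and 41 at day 21. The 3 groups did not overlap, and within each group the libraries were close, day 21 replicate 2 included. The level was 0.0145 ± 0.0252 FPKM at day 0, 2.08 ± 0.182 FPKM at day 3 and 1.05 ± 0.126 FPKM at day 21 (SD, n = 3 each). Against the 2 counts at day 0, the ratio of summed counts per effective library size was 151 at day 3 (266 counts; exact 95% interval 41.4 to 1254) and 71.7 at day 21 (121 counts; 19.4 to 599), where the intervals cover counting error only. The edgeR adjusted p was 6.45e-06 for day 3 and 7.35e-05 for day 21 against day 0. Htr2b passed the filter on low counts only through its day 3 and day 21 libraries, so these p-values are no separate support for the rise. The fitted log2 fold changes were 6.96 and 5.89, and over all alternatives they ranged from 1.60 to 9.51 at day 3 and from 1.011 to 8.45 at day 21, lowest with limma on log2(FPKM + 1) and highest without day 0 replicate 3, which holds both day 0 counts. All these alternatives kept both calls. At day 21 against day 3 the log2 fold change was -1.06 ± 0.29 (edgeR adjusted p 0.0244). That call ended when day 3 replicate 1, 2 or 3 or day 21 replicate 1 or 3 was left out (edgeR adjusted p 0.0516 to 0.089).

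The gene Psmd1, a proteasome subunit on the opposite strand, shares 11.8% of the exon bases of Htr2b. Psmd1 had 10148 counts over the day 0 libraries, where Htr2b had 2, and it had 8081 over the day 3 libraries and 7304 over the day 21 libraries. Several marker lists were also higher at day 3 than at day 0. All 8 markers of microglia and macrophages were higher at day 3 than at day 0 (sums of 262 to 282 FPKM at day 3, 39.5 to 41.6 FPKM at day 0) and all 8 at day 21 (186 to 206 FPKM). All 9 fibroblast and meningeal markers were higher at day 3 (561 to 565 FPKM at day 3, 44.5 to 47.0 FPKM at day 0), and 7 of 9 at day 21 (291 to 359 FPKM). Of the 7 endothelial markers 5 were higher at day 3 (161 to 169 FPKM at day 3, 53.5 to 63.5 FPKM at day 0), and none was higher and 1 was lower at day 21 (52.7 to 69.7 FPKM). Of the 7 pericyte and smooth muscle markers, 5 were higher at day 3 (270 to 278 FPKM at day 3, 46.3 to 47.7 FPKM at day 0) and 4 at day 21 (86 to 108 FPKM). Of the 7 Schwann cell markers, 6 were higher at day 3 (719 to 737 FPKM at day 3, 214 to 262 FPKM at day 0) and 6 at day 21 (340 to 421 FPKM). Of these 5 lists no marker was at 0 counts at any time. Of the platelet list, 4 of 4 testable markers were higher at day 3 (19.1 to 20.2 FPKM at day 3, 2.79 to 3.34 FPKM at day 0) and 2 at day 21 (4.1 to 7.59 FPKM), with Ppbp at 0 counts at day 0. The 10 peripheral sensory neuron markers were also higher, all 10 at day 3 and 8 at day 21. Of the 7 astrocyte markers, 4 were higher and 2 lower at day 3, and 2 were higher at day 21. Their sums were 909 to 917 FPKM at day 0, 2402 to 2461 FPKM at day 3 and 2048 to 2275 FPKM at day 21. The part of these cell types in the change of Htr2b was not tested.

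RefSeq's promoter table (GRCm38.p6) held 9 promoters of 8 of the 10 members, and the 250 bases before the start were searched on both strands for 6 motifs. The promoters of Htr2b and Htr2c are shown because both genes code for Gq-coupled receptors, 1 rose and 1 fell at day 3, and both promoters hold the same 7 letters that match the loose AP-1 pattern searched. The matches are in capitals and the sequences are written 5′ to 3′ along the gene.
Htr2b, chr1:86111981-86112230, minus strand: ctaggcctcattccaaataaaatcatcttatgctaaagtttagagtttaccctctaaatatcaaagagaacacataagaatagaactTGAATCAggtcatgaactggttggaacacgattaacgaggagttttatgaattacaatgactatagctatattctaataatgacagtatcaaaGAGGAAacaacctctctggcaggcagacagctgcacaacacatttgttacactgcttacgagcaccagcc
Htr2c, chrX:146962263-146962512, plus strand: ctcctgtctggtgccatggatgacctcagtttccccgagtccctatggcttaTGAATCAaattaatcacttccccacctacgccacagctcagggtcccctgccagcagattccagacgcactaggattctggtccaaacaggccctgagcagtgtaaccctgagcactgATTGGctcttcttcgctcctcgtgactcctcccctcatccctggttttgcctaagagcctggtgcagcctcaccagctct
The AP-1 pattern (TGANTCA, where N is any base) began at -163 in Htr2b and at -198 in Htr2c, counted from the start with -1 as the base before it. It is in 6.75% of the 32851 promoters of the table. The pattern also takes forms without C or G at N, and both matches are such a form, TGAATCA. The core motif of the myeloid factor PU.1 (GAGGAA) was at -70 in Htr2b and is in 23.3% of promoters, and it was also at -27 in Htr2a, at -53 in Htr1a and at -225 in 1 of the 2 promoters of Htr1d. A CCAAT box (CCAAT) was at -80 of Htr2c on the other strand and is in 33.8%. No match overlapped another. The cyclic AMP response element (TGACGTCA, in 1.55% of promoters), the TATA box (TATAAA, in 12.4%) and the GC box (GGGCGG, in 32.7%) had no match in these 2 windows. A match is a run of letters, not a shown binding site.

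Htr3a (chr9:48899214-48911099, minus strand) codes for the subunit that every serotonin-gated cation channel needs, and in the cord region it is known from dorsal horn interneurons and from sensory neurons of the dorsal root ganglia. It had 155, 115 and 138 counts at day 0, 138, 161 and 130 at day 3 and 99, 113 and 118 at day 21. In FPKM the 3 day 3 libraries (4.12, 4.31 and 4.19) lay above all day 0 libraries (3.10, 3.50 and 3.76), and the day 21 libraries (3.02, 3.73 and 3.96) spread over the day 0 range. The difference did not pass the test. The log2 fold change was 0.23 ± 0.15 for day 3 against day 0 (edgeR adjusted p 0.242) and -0.08 ± 0.15 for day 21 against day 0 (edgeR adjusted p 0.74). Over all alternatives, the first ranged from 0.12 to 0.31 and was called in none. Whether Htr3a differed from the 6 members that fell was not tested. Beside it, all 10 markers of peripheral sensory neurons were higher at day 3 than at day 0, with a median log2 fold change of 7.11, while all 8 spinal interneuron markers were lower with a median of -1.21; at day 0 the sensory marker Mrgprd had 0 counts. Their part in the level of Htr3a was not tested. The other channel subunit of the table, Htr3b, was too low to test, with 5 counts in all at day 0, 11 at day 3 and 8 at day 21.

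Of the Gs-coupled receptors, Htr4 (chr18:62324204-62467802, plus strand), best known from gut and brain, had 71, 32 and 45 counts at day 0, 16, 19 and 17 at day 3 and 34, 11 and 24 at day 21. All day 3 libraries were below all day 0 libraries. Its mean was 0.229 ± 0.0157 FPKM at day 3 and 0.540 ± 0.0997 FPKM at day 0 (SD, n = 3 each), and the log2 fold change was -1.29 ± 0.35 (edgeR adjusted p 0.0141), a call lost without day 3 replicate 1 (edgeR adjusted p 0.0518). At day 21 the log2 fold change against day 0 was -0.83 ± 0.34 (edgeR adjusted p 0.096), and without day 21 replicate 1 it was -1.18 (edgeR adjusted p 0.0439).

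Htr7 (chr19:35958734-36057507, minus strand), a receptor tied to locomotor circuits of the mouse cord, had 333, 216 and 229 counts at day 0, 175, 87 and 158 at day 3 and 167, 112 and 149 at day 21. Day 0 overlapped with neither later time in FPKM, but day 3 replicate 2 (0.5 FPKM) was below the other 2 day 3 libraries (1.12 and 1.09 FPKM). The log2 fold change was -0.68 ± 0.28 for day 3 against day 0 (edgeR adjusted p 0.0775) and -0.62 ± 0.28 for day 21 against day 0 (edgeR adjusted p 0.131), so neither was called. The day 3 value passed without day 21 replicate 2 (edgeR adjusted p 0.0462), and the day 21 value passed without day 3 replicate 2 (edgeR adjusted p 0.027). Day 21 against day 3 gave 0.06 ± 0.28 (edgeR adjusted p 0.901).

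Of the receptor genes outside the 10, Htr6, a Gs-coupled receptor, had 86, 40 and 54 counts at day 0, 28, 24 and 26 at day 3 and 26, 10 and 20 at day 21. It was lower at both times, with log2 fold changes of -0.99 ± 0.30 at day 3 and -1.41 ± 0.31 at day 21 (edgeR adjusted p 0.0233 and 0.00852). The day 3 call ended without day 0 replicate 1 or 3 or without any day 3 replicate (edgeR adjusted p 0.0551 to 0.09). Htr5b, whose human counterpart is not functional, was lower at day 3 (9, 7 and 8 counts at day 3, 36, 24 and 27 at day 0; log2 fold change -1.66 ± 0.34, edgeR adjusted p 0.00366), and at day 21 its log2 fold change was -0.81 ± 0.32 (edgeR adjusted p 0.0862). Htr1f had 5 to 22 counts in each library and was called in no comparison.

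The levels of the 10 receptors, added up in each library, came to 15.7, 15.7 and 15.2 FPKM at day 3 and 23.3, 24.3 and 23.3 FPKM at day 0, and the 2 groups did not overlap. At day 21 the sums were 21.4, 15.1 and 25.2 FPKM, with the lowest in replicate 2. The make-up of that sum also differed. Htr2a and Htr2c together made up 27.9% ± 2.25 of it at day 3 and 42.6% ± 0.529 at day 0 (SD, n = 3 each), while Htr3a made up 27.1% ± 0.689 at day 3 and 14.6% ± 1.43 at day 0. Htr2b accounted for 0.0623% ± 0.108 at day 0, 13.4% ± 1.14 at day 3 and 5.37% ± 1.87 at day 21. At day 21, Htr2a and Htr2c made up 44.9%, 29.5% and 43.9% in replicates 1, 2 and 3, so that replicate 2 was close to the day 3 libraries and the others were close to day 0. These shares move against each other by construction and rest on the authors' gene lengths, and no test was run on them, since 3 libraries against 3 cannot give an exact permutation p below 0.10.

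**Figure D3:**
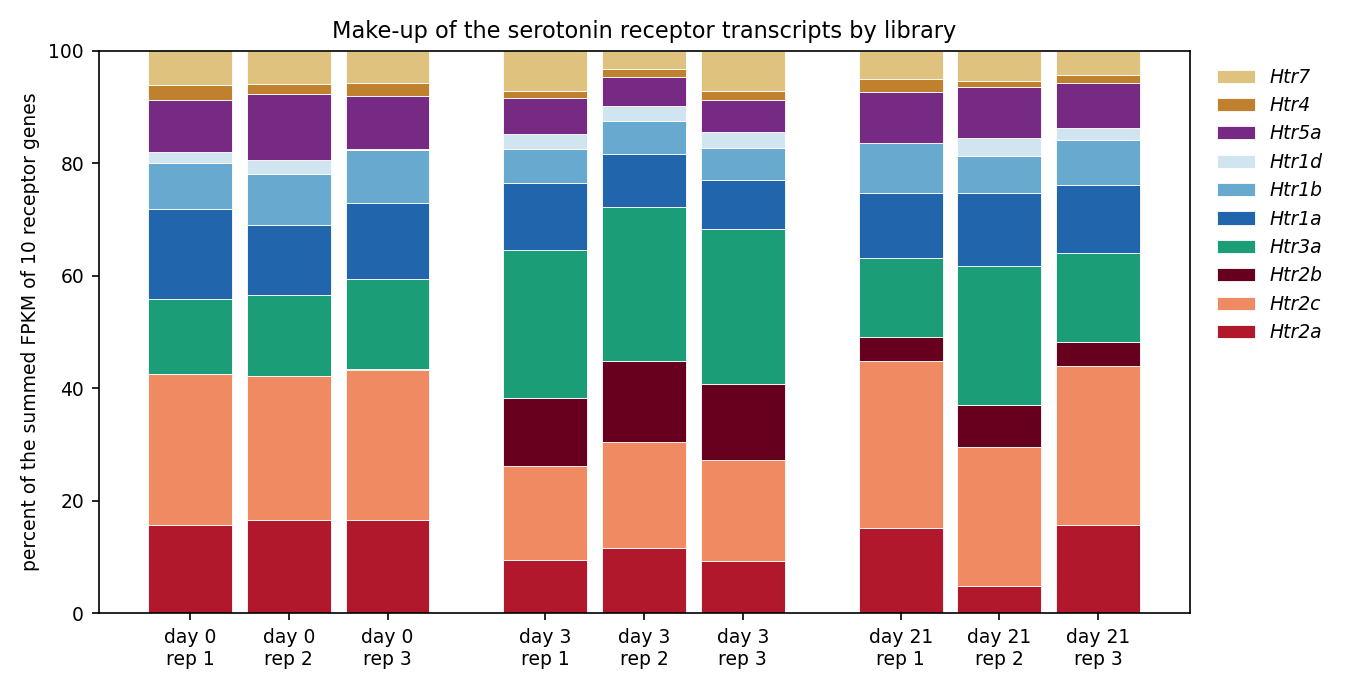
Share of each receptor (y axis, percent of the summed FPKM of the 10 receptor genes) in each of the 9 libraries, grouped by day. At day 3 the dark band of Htr2b (12.2% to 14.4%) and the green band of Htr3a (26.3% to 27.5%) are wide in all 3 libraries, and day 21 replicate 2 has a narrower Htr2a band (4.75%) than the other day 21 libraries (15.1% and 15.7%).

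Day 21 replicate 2 decided several of the day 21 values. Its log2 CPM minus the mean of the other 2 day 21 libraries was -2.35 for Htr2a, -1.35 for Htr4, -1.05 for Htr1b, -0.90 for Htr2c, -0.59 for Htr5a, -0.53 for Htr1a and -0.50 for Htr7. It was 0.14 for Htr2b, 0.06 for Htr3a and 2.04 for Htr1d. The same difference had a median of 0.16 over the neuron markers and -0.04 over all genes tested. By gene length it had a median of 0.47 over the shortest 25% of genes (up to 2826 bases) and of -0.51 over the longest 25% (8436 bases or more), and the part of gene length in the receptor values was not tested. Without this library, 6 members were higher and 1 was lower at day 21 than at day 3, because Htr1b, Htr2a and Htr4 joined Htr1a, Htr2c and Htr5a (49.3% of 16739 genes tested were called in that fit). At day 3 against day 0, Htr7 joined those that fell, for 1 higher and 7 lower with 61.2% of genes called. For day 21 against day 0 Htr2b remained the 1 member called, with 47.5% of genes called.

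**Figure D4:**
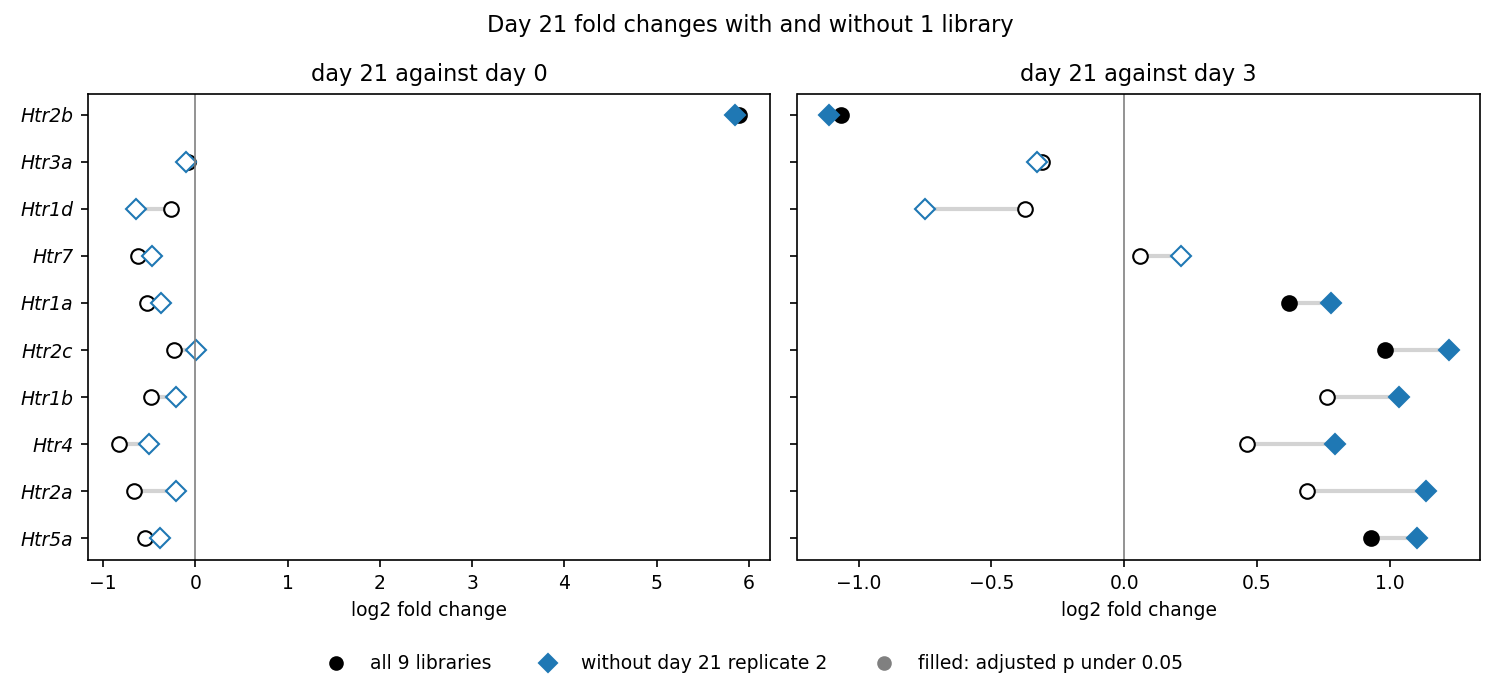
Log2 fold change (x axis) of the 10 receptors at day 21 against day 0 (left) and against day 3 (right), from all 9 libraries (black circles) and without day 21 replicate 2 (blue diamonds); filled symbols have an edgeR adjusted p under 0.05. On the right, Htr1b, Htr4 and Htr2a have open circles and filled diamonds, and on the left Htr2b is the one filled gene in both fits.

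Genes that make, carry and break down serotonin were mostly low or mixed. Tph2, the enzyme that neurons use to make serotonin, had 3 to 10 counts in each library, Tph1, the enzyme of peripheral tissues, 0 to 5, and Slc18a2, which loads serotonin into vesicles, 0 to 3. None of these was testable. Of the 12 testable genes of the list, 3 were higher and 3 lower at day 3, and 1 was higher and 1 lower at day 21, both against day 0. Slc6a4, the serotonin transporter, had 3, 2 and 1 counts at day 0, 25, 31 and 16 at day 3 and 0, 5 and 5 at day 21. It was higher at day 3 than at day 0 (log2 fold change 3.67 ± 0.64, edgeR adjusted p 0.00139). Slc6a4 passed the filter on low counts only through the day 3 libraries, where it was high, so that p-value is no separate support for the rise. The day 21 value was not called (0.95 ± 0.86 against day 0, edgeR adjusted p 0.452, and the sign turned with voom weights, to -0.69). Beside Slc6a4, which platelets also carry, all 4 testable platelet markers were higher at day 3, with the sums given beside Htr2b, and their part was not tested. Gch1, which starts the synthesis of the cofactor of tryptophan hydroxylase, was higher at day 3 (2.80, 2.81 and 3.09 FPKM at day 3, 1.02, 0.686 and 1.13 FPKM at day 0; log2 fold change 1.56 ± 0.19, edgeR adjusted p 0.000174) and at day 21 (0.82 ± 0.20, edgeR adjusted p 0.0133). Slc29a4, a low-affinity monoamine transporter, was lower at both times (-0.80 ± 0.14 and -0.51 ± 0.14, edgeR adjusted p 0.00126 and 0.0217). Without day 0 replicate 2 or 3 or day 21 replicate 3 the day 21 value had an edgeR adjusted p of 0.0601 to 0.0827. That call was also lost in edgeR with library totals (adjusted p 0.0555) and the replicate block (0.0565), and in limma on log2(FPKM + 0.1) (adjusted p 0.0521) and log2(FPKM + 1) (0.0513).

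Among 13 partners of the receptors, 2 were higher and 5 lower at day 3, and 1 was higher and 3 lower at day 21, both against day 0. S100a10 (p11), which brings Htr1b and Htr4 to the cell surface, was higher at day 3, with 71.1, 67.1 and 70.0 FPKM at day 3 against 20.8, 16.7 and 15.0 FPKM at day 0 (log2 fold change 1.94 ± 0.31, edgeR adjusted p 0.000786). At day 21 it had 27.4, 68.0 and 30.7 FPKM (1.13 ± 0.30 against day 0, edgeR adjusted p 0.0209, and 0.0699 and 0.08 without day 0 replicate 2 or 3). The enzymes that edit the RNA of Htr2c fell at day 3. Adar had 12.2, 11 and 11.9 FPKM at day 3 against 23.8, 20.4 and 20.8 FPKM at day 0 (-0.94 ± 0.10, edgeR adjusted p 8.84e-05) and was also lower at day 21 (-0.57 ± 0.10, edgeR adjusted p 0.00345). Adarb1, the other editing enzyme, was lower at day 3 (-0.66 ± 0.18, edgeR adjusted p 0.0138). Dlg4, the scaffold protein of synapses that binds Htr2a and Htr2c, was lower at day 3 (-0.85 ± 0.11, edgeR adjusted p 0.000175) and at day 21 (-0.69 ± 0.11, edgeR adjusted p 0.00148). The editing itself cannot be read from gene counts.

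On the signalling side, more genes were called lower than higher in the Gi and Gs lists at both times, and the Gq list was split between higher and lower. Of the 15 genes for Gi signalling, 3 were higher and 9 lower at day 3, and 4 were higher and 6 lower at day 21, both against day 0, with median log2 fold changes of -0.74 and -0.38. Kcnj6, Kcnj3 and Kcnj9, subunits of the potassium channels that Gi-coupled receptors open, were lower at day 3 (-2.06 ± 0.51, -1.45 ± 0.34 and -1.20 ± 0.10, edgeR adjusted p 0.00932, 0.00705 and 1.56e-05). Gnai2, a Gi subunit of many cell types, was higher at day 3 (1.10 ± 0.14, edgeR adjusted p 0.000211) and at day 21 (0.50 ± 0.14, edgeR adjusted p 0.0245; 0.0644 to 0.0833 without any 1 of the day 0 libraries). Of the 19 genes for Gs signalling, 2 were higher and 13 lower at day 3, and 2 were higher and 8 lower at day 21, with medians of -0.74 and -0.51. They included the adenylyl cyclase Adcy1, at 6.54, 6.65 and 6.63 FPKM at day 3 and 18.5, 16.7 and 16.3 FPKM at day 0 (-1.43 ± 0.29, edgeR adjusted p 0.00356), while the transcription factor Creb1 was higher at day 21 (0.82 ± 0.16, edgeR adjusted p 0.00438).

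Of the 17 genes for Gq signalling, 5 were higher and 3 lower at day 3, and 4 were higher and 3 lower at day 21, with medians of -0.08 and -0.11. Those that rose most at day 3 were Gna15, a Gq subunit of blood cells, at 3.43, 3.36 and 2.80 FPKM at day 3 against 0.805, 0.604 and 0.506 FPKM at day 0 (2.26 ± 0.20, edgeR adjusted p 1.94e-05), and Plcb2, a phospholipase C of blood cells (2.11 ± 0.29, edgeR adjusted p 0.000365). Both were still higher at day 21 (1.84 ± 0.20 and 2.04 ± 0.29, edgeR adjusted p 0.000188 and 0.00106). Also higher at day 3 were Plcb3, at a mean of 27.3 FPKM against 7.4 FPKM at day 0 (1.828 ± 0.115, edgeR adjusted p 2.33e-06), and Itpr3 (1.26 ± 0.18, edgeR adjusted p 0.000413). At day 21 Plcb3 was still higher than at day 0 (0.69 ± 0.11, edgeR adjusted p 0.00194), and Itpr3 was not called (0.01 ± 0.18, edgeR adjusted p 0.968). Plcb4, a phospholipase C of neurons, was lower at day 3 (-1.21 ± 0.21, edgeR adjusted p 0.00136) and at day 21 had -0.24 ± 0.21 against day 0 (edgeR adjusted p 0.432). Without day 21 replicate 2, the lower genes at day 3 numbered 7 in the Gq list, and those at day 21 numbered 13 in the Gs list, 5 in the Gq list and 4 in the list of synthesis, transport and breakdown, in a fit that called 61.2% of all genes at day 3 and 47.5% at day 21. The lists were chosen by function and are described by these counts alone, beside the 44.3% and 29.2% of all genes called with all 9 libraries.

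**Figure D5:**
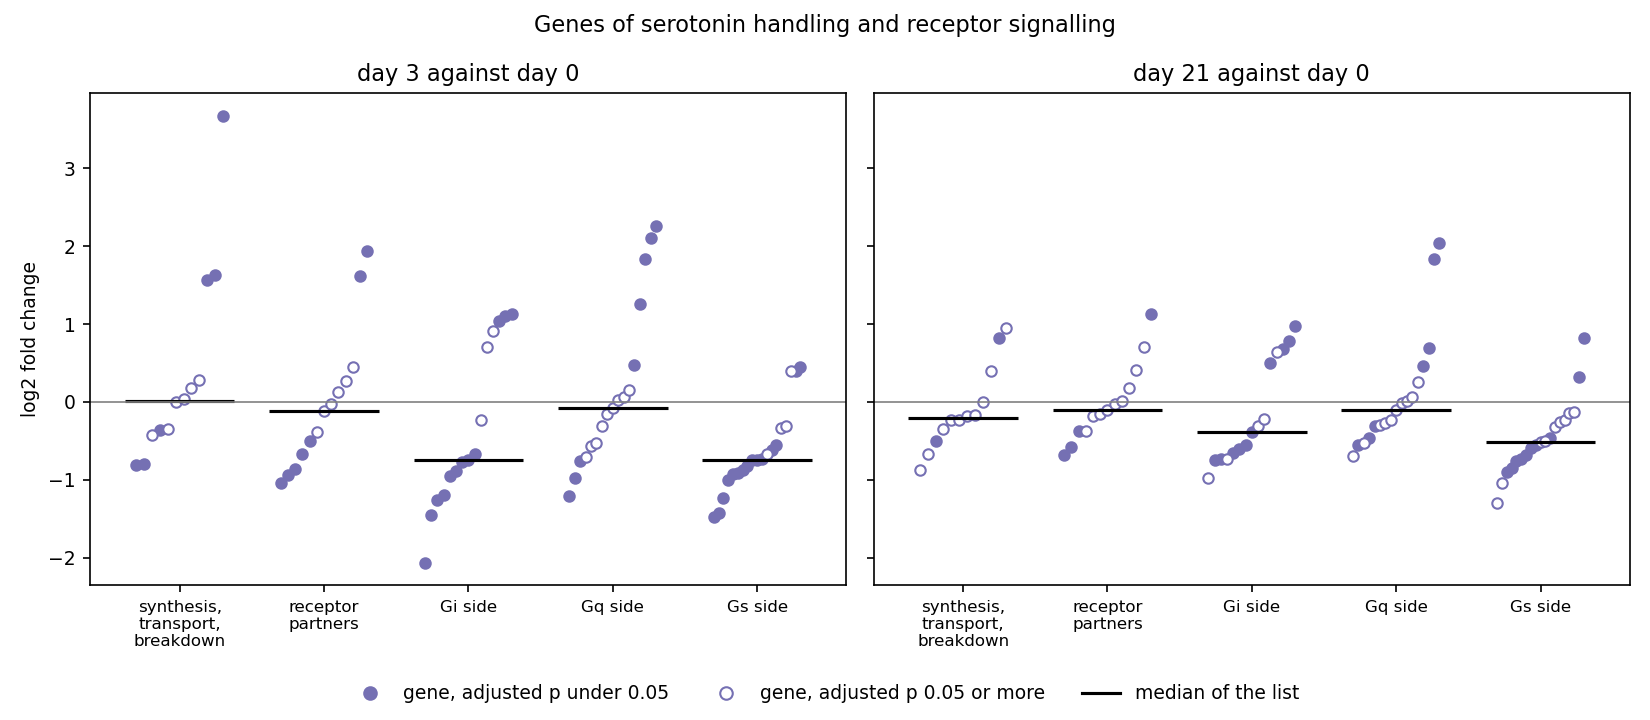
Log2 fold change (y axis) of each testable gene in 5 lists of serotonin handling and receptor signalling, at day 3 (left) and day 21 (right) against day 0; filled points have an edgeR adjusted p under 0.05 and bars are list medians. The medians of the Gi and Gs lists are -0.74 and -0.74 at day 3 and -0.38 and -0.51 at day 21, while that of the Gq list is near 0 at both times (-0.08 and -0.11).

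Among the genes tested with a mean of at least 1 FPKM, those most like a receptor were found by the root mean square difference of centred log2 CPM over the 9 libraries, as a description. Nearest to Htr2c were Map9 (0.0755) and Gad2 (0.0761), where the median gene was at 0.649. Nearest to Htr1b were Myt1l (0.0683) and Pja2 (0.0836), to Htr1a Lppr1 (0.111) and Dcaf12l1 (0.118), and to Htr2a Etl4 (0.133) and Map3k13 (0.134). Nearest to Htr4 were Kcnj3 (0.152) and Adcy1 (0.156), both of the signalling lists above. Htr7 was nearest to Trim9 (0.0675) and Htr3a to Arhgef2 (0.0562). For Htr2b the nearest genes, Cd300lf (0.588) and Mnda (0.675), were further away, with the median gene at 3.06, and for Htr1d no gene was near (0.987 for the first). The 9 libraries behind these distances share their times, so genes with the same course over the 3 days come out close. A shared low value in day 21 replicate 2 also brings genes close, and Htr4, Kcnj3 and Adcy1 each had their lowest day 21 level there.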

How the data were processed

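Per the labels' protocols, poly-A RNA of mouse spinal cord was made into paired-end TruSeq libraries. The submitters' processing notes name HISAT2, StringTie and the human build GRCh38, without versions or roles, although the organism is mouse. Gene loci in the deposited table lie on mouse build GRCm38. Per the file headers, the deposited table holds whole-number counts and FPKM for each of 9 libraries. The sources used here give no aligner settings, annotation or strand use. The FPKM deposited by the authors equal counts per library total and per a fixed gene length.

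The counts were tested with edgeR 4.0.16 in R 4.3.3 (TMM, filterByExpr, robust quasi-likelihood, 9 libraries in 1 fit, 6 residual degrees of freedom), which kept 16494 of 34745 genes; called means a Benjamini-Hochberg adjusted p under 0.05. SE is the log2 fold change divided by the root of F. The procedure was also run on simulated counts with few changed genes and no library standing apart. That run cannot speak for the calls made here. FPKM served for levels. Count ratios carry exact 95% binomial intervals for counting error only.

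All 10 members and the other receptor genes are named. From each other pathway list, genes were taken from up to 4 called genes with the largest change per comparison and at least 1 FPKM in the higher group; Slc6a4 came from the marker lists, which give up to 2 called genes each. Adarb1, Tph1, Tph2, Slc18a2 and markers at 0 counts were added after their values were seen. For likeness, up to 2 nearest genes per member are named. The members and lists were chosen with earlier results of these data known. DESeq2 1.42.0, limma 3.58.1, other scalings, filters and pseudocounts, a replicate block and leaving out each library were tried as alternatives.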

Additional observations from a re-analysis of the deposited data

How the results depend on the processing

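The count of genes called for day 3 against day 0 moved by less than 1.5 times under every alternative run. For day 21 against day 0 it was 4813, against 8323 with voom and sample weights and 3273 to 7955 with 1 library left out (7955 without day 21 replicate 2). For day 21 against day 3 it was 4585, against 9294 with voom and 2893 to 8246 with 1 library left out (2893, 2969 and 2938 without day 3 replicate 1, 2 or 3, and 8246 without day 21 replicate 2). The split at day 21 against day 0 was 2949 higher and 1864 lower, and 3571 and 1076 with library totals (median of all genes 0.14), 3443 and 1152 with limma on log2(FPKM + 0.1) and 3320 and 1218 on log2(FPKM + 1). Deviations from the group mean had correlations of -0.11 to 0.09 between same-numbered libraries and of -0.189 to 0.192 between others. With 3 libraries in a group, this check cannot show whether the numbers pair them. The replicate block left 2516 higher and 1318 lower at day 21 against day 0. With the replicate block, log2 fold changes were 0.61 for Htr1a and -1.07 for Htr2b at day 21 against day 3 and -1.33 for Htr2a at day 3 against day 0, none of them called, and -0.75 for Htr7 at day 3 against day 0, called. Limma gave -1.25 (FPKM + 0.1) and -0.92 (FPKM + 1) for Htr2a at day 3 against day 0, not called, and 0.042 and 0.034 for Htr3a at day 21 against day 0, with library totals at 0.049, a sign other than that of the -0.08 reported. Calls were gained at day 21 against day 0 for Htr1a (-0.53 with DESeq2, -0.39 with voom; -0.71 to -0.37 with 1 library left out), Htr1b (-0.30 with voom) and Htr5a (-0.55 with DESeq2, -0.61 with no filter, -0.43 with voom). They were gained at day 3 against day 0 for Htr7 (-0.69 with DESeq2, -0.77 with no filter, -0.78 with voom; -0.87 to -0.39 with 1 library left out). They were gained at day 21 against day 3 for Htr1b (0.83 with library totals, 0.77 with DESeq2, 0.79 with no filter, 0.997 with voom; 0.57 to 1.03 with 1 library left out) and with voom for Htr2a (1.04), Htr3a (-0.40) and Htr4 (0.80). Leaving out 1 library at a time gave these ranges of log2 fold change where a call or a sign changed. At day 3 against day 0 they were -0.40 to 0.63 for Htr1d, -1.47 to -1.28 for Htr2a and -1.41 to -1.19 for Htr4. At day 21 against day 0 they were -0.78 to 0.30 for Htr1d, -0.43 to 0.005 for Htr2c, -0.17 to 0.019 for Htr3a, -1.18 to -0.50 for Htr4 and -0.71 to -0.47 for Htr7. At day 21 against day 3 they were 0.44 to 0.78 for Htr1a, -0.79 to 0.19 for Htr1d, 0.28 to 1.14 for Htr2a, -1.13 to -0.98 for Htr2b, 0.11 to 0.80 for Htr4 and -0.24 to 0.25 for Htr7. Htr1f at day 21 against day 0 turned sign with voom (0.15) and without day 21 replicate 2 (0.16, the highest with 1 library left out, the lowest being -0.46), and Slc6a4 with voom (-0.69). Where calls changed, the cause was not tested. Low counts limit Htr2b at day 0 (2 counts), Htr4 (11 to 71 counts in each library) and Htr1f (5 to 22). Htr1d had few counts in day 0 replicate 3 (5) and day 21 replicate 1 (2), neither the shallowest library of its group.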
